A study of Mus musculus with 12 samples.

Results

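The mitochondrial respiratory chain passes electrons from NADH and succinate to oxygen through complexes I to IV, and ATP synthase (complex V) uses the proton gradient that complexes I, III and IV build to make ATP. Complex II is built from nuclear genes alone, while the other complexes join nuclear-encoded subunits to a few encoded by mitochondrial DNA. Macrophages polarized with IL-4 are known for their reliance on oxidative phosphorylation, and miR-210, a microRNA induced by hypoxia, is known for repressing iron-sulfur cluster assembly and components of the chain.

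The genes described here are the nuclear protein-coding genes whose symbols name a subunit of the chain: Nduf genes of the a, b, c, s and v series, Uqcr genes, Cox4 to Cox8 genes, Atp5 genes, and Sdha, Sdhb and Sdhc. The names gave 88 genes, and the 78 with a mean raw count of at least 10 over the 12 libraries were kept, out of 56941 genes in the count tables and 14093 at the same mean count. Complex I has 36 of them, complex II 3, complex III 8, complex IV 13 and ATP synthase 18. Ndufa4 was placed with complex IV, to which its protein belongs, and Atp5if1, the ATP synthase inhibitor, with complex V. The kept gene nearest to the limit was Atp5me, at a mean count of 23.7, and the nearest gene left out was Cox5b-ps, at 4.08. The 10 left out include variants of complex IV subunits known from other tissues (Cox4i2, Cox6b2, Cox7a1, Cox7b2, Cox8b, Cox8c and Ndufa4l2).

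Monocytes of C57BL/6J mice, either WT or with both copies of miR-210 deleted (KO), were cultured from bone marrow for 7 days in medium conditioned by L929 cells, which supplies M-CSF, to give M0 macrophages. IL-4 at 20 ng/mL for a further 72 hours gave M2 macrophages, and M0 wells were kept without it. The deletion descends from a cross of mice with a floxed miR-210 gene and mice with a Gata-1 Cre transgene, WT and KO mice both came from heterozygous parents, and the age of the mice is not given in the sources used here. Ribosomal RNA was removed and 3 stranded libraries were sequenced in each of WT M0, KO M0, WT M2 and KO M2.

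Library totals were between 7930525 and 10167695 counts. Nothing in the labels ties the libraries of a group to separate mice or cultures, so the p values measure the spread between these libraries, which may be technical, and the labels give each group its own batch, so that batch and group cannot be told apart. Mir210 had 9 counts over the 3 WT M0 libraries, 4 over the 3 WT M2 libraries and 0 in every KO library, where a count of 0 allows up to 3. The 8 macrophage markers looked at were all present and summed to between 7570 and 10357 CPM per library (counts per 1000000 of the library's TMM-scaled total), while the 4 T cell and 4 B cell markers were each under 1 CPM in every library. The 4 IL-4 markers summed to between 1539 and 2084 CPM in M0 and between 6425 and 7016 CPM in M2, and 4 dendritic cell markers to between 0.309 and 0.950 CPM in M0 and between 10.1 and 17.9 CPM in M2. Zbtb46 alone carried the dendritic cell sum in M2, with means of 14.9 CPM in WT and 10.99 CPM in KO, while Flt3, Xcr1 and Siglech had group means of at most 0.413 CPM. In such bulk RNA, fewer cells of a type and less RNA per cell cannot be told apart.

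Libraries stood apart in the level of short transcripts, and this touches the subunits, 38 of which have a canonical transcript of at most 1000 bases. The median deviation of the 78 subunits from their mean over 12 libraries, in log2 CPM, was -0.29 in the WT M0 library numbered 2 and -0.19 in the KO M0 library numbered 2. In the same libraries it was -0.21 and -0.12 over 467 other protein-coding genes of that length. In the KO M0 library numbered 1 it was 0.10 for the subunits and 0.13 for the other short genes. Counts below are therefore also given without the 2 M0 libraries numbered 2, of which each IL-4 comparison holds 1, an alternative chosen after seeing the data.

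**Figure D1:**
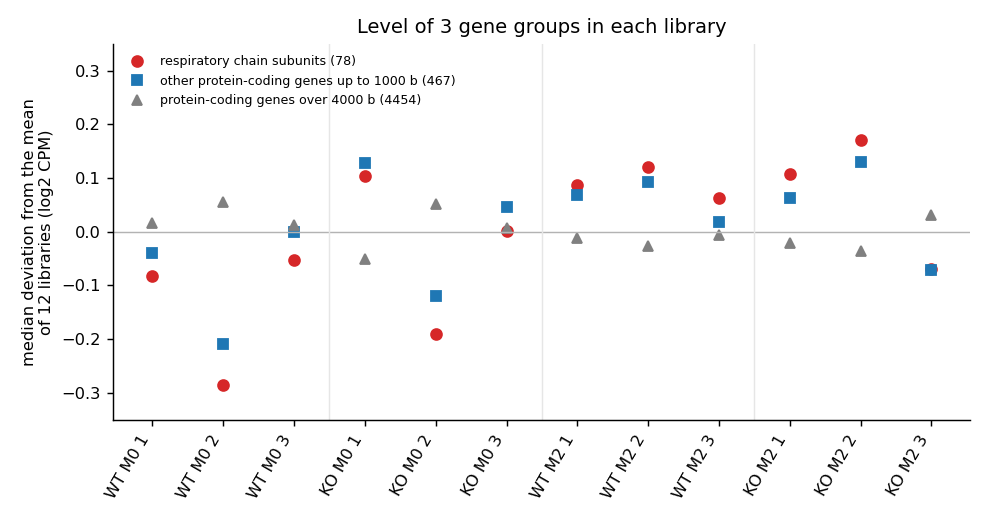
Each point is the median deviation of a gene group from its mean over 12 libraries (y axis, log2 CPM) in 1 library (x axis). Subunits and other short genes are lowest together in the WT M0 and KO M0 libraries numbered 2, at -0.29 and -0.21 in the first, while genes over 4000 bases lie between -0.05 and 0.06.

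The sequence of the deleted microRNA is shown to make plain which letters were searched in the subunits. The mature strand, from RefSeq (GRCm38.p6), has its seed, bases 2 to 8, in capitals.
mmu-miR-210-3p: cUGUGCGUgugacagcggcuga
The reverse complement of the seed, ACGCACA, occurs in an annotated 3′ untranslated region of 2 of the 78 subunits (2.56%), against 6.74% of the 10985 genes with such a region that were tested in M0. Their untranslated regions were shorter, with a median of 828 bases against 1891 bases for all. The 2 sites are shown, in capitals, with the letters beside them, as transcribed from GRCm39.
Ndufa13, chr8:70346853-70346859, minus strand: ggcctgagccaACGCACAtaataaagagt
Sdhb, chr4:140709078-140709084, plus strand: tgcggctgtgcACGCACAtgcacagtacc
The shorter match of 6 bases occurs in 9 subunits (11.5%), among them Ndufa4, Sdha and Ndufa10, against 17.9% of genes. These are matches of letters, and nothing was measured about binding.

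Promoters of 63 of the 78 subunits were found in RefSeq (GRCm38.p6), each 250 bases before to 50 after the start of the gene. Letters known from the sites of factors that act on respiratory genes were searched on both strands, and the promoters counted may hold more than 1 of them. The NRF1 letters CGCATGCG were in 9 of the 63 (14.3%), against 2.07% of 27025 genes. The ETS letters CCGGAAG were in 15 (23.8%, against 9.93%), and the YY1 letters AAGATGGCG in 7 (11.1%, against 1.64%). At least 1 of the 3 was in 39.7% of the subunits' promoters and 12.8% of all. The 27025 genes are all those with such a promoter, without the limits on gene type and count that the subunits passed. The shares over genes under the same limits were not counted, so the differences cannot be laid to the subunits as such. The promoters of 2 complex III genes and a complex IV gene that rose with IL-4 in WT are shown, 5′ to 3′ in the direction of the gene, with the matched letters in capitals, which read as the reverse complement, CTTCCGG, for both ETS examples.
Uqcrc1, chr9:108936398-108936697, plus strand, NRF1 letters: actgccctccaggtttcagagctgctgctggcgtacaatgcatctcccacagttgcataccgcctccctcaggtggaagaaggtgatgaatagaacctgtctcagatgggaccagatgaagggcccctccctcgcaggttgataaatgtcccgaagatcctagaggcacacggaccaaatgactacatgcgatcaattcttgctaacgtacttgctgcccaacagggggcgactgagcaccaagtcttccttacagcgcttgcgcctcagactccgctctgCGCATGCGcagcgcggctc
Uqcrh, chr4:116075021-116075320, minus strand, ETS letters: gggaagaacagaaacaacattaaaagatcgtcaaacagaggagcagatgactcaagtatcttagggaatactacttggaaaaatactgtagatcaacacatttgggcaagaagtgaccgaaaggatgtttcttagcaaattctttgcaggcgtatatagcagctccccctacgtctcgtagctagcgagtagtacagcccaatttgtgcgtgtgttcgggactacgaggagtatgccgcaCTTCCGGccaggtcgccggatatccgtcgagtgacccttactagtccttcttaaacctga
Cox8a, chr19:7217567-7217866, minus strand, ETS letters at 2 places: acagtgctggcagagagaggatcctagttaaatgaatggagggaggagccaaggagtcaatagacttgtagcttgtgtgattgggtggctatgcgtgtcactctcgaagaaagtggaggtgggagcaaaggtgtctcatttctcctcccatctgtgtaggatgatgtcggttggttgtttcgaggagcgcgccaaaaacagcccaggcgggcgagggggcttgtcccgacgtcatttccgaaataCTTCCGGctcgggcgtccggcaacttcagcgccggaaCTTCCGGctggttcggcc
At least 1 of the 3 was in 5 of the 20 promoters of subunits called with IL-4 in WT and in 20 of the 43 promoters of subunits not called.

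Subunits of the same complex differed widely in level. Levels between genes are compared as CPM per kb of exons, and the median over the subunits was 10.5 CPM per kb, against 5.76 over 11145 protein-coding genes at the same mean count. In order, 77 pairs of neighbours were compared in WT M0, and 7 were further apart than the sum of their SDs, so that most neighbours did not differ beyond their spread. Cox8a, a small subunit of cytochrome c oxidase, had the highest level, 161 ± 18.9 CPM per kb in WT M0, 182 ± 23.9 in KO M0, 216 ± 12.4 in WT M2 and 209 ± 31.0 in KO M2 (SD, n = 3). The highest of complex III was Uqcrb, at 97.9 ± 11.2 CPM per kb over the 12 libraries (SD, n = 12), of complex I Ndufc2, at 79.1 ± 12.7, of ATP synthase Atp5f1b, the catalytic beta subunit, at 77.9 ± 17.2, and of complex II Sdhc, a membrane anchor, at 38.6 ± 6.21. At the other end were Ndufa4, at 0.482 ± 0.102, Ndufb2, at 0.485 ± 0.0613, Atp5mk, at 0.890 ± 0.165, Sdhb, the iron-sulfur subunit of complex II, at 1.63 ± 0.123, and Uqcr11, at 2.84 ± 0.641 CPM per kb.

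The length used carries much of this order. Exons of all annotated transcripts of Ndufa4 join to 8652 bases, and its canonical transcript has 529 bases, on which its level was 7.89 CPM per kb and its place rose from 78th to 66th. Cox8a remained first on either length, and Ndufb2 was last on the canonical length, at 1.27 CPM per kb. The heads of complexes III and I changed on the canonical length. There Uqcr10, at 247 CPM per kb, was above Uqcrb, at 163, and Ndufa6, at 126, was above Ndufc2, at 102. Sequence shared with other places of the genome also differed between subunits: 88.4% of the 50-base stretches of the canonical Atp5mc2 transcript, 84.4% of those of Atp5mc1, 75.4% of those of Ndufs5, 71.5% of those of Cox7c, 68.7% of those of Atp5mg and 58.7% of those of Uqcrb occur elsewhere in GRCm39. The next largest shares were 46.8% for Cox7a2l, 41.3% for Ndufb4, 38.2% for Cox5b, 34.6% for Atp5pd and 30.8% for Ndufs3. The levels and changes of these genes are uncertain, the place of Uqcrb at the head of complex III included. Of the 78 subunits, 12 overlap another annotated gene on the same strand, and for stranded counts these are uncertain too. They include Atp5f1b, Ndufa13 and Ndufc2. The overlapping genes had mean counts of at most 1.58 beside 3240 for Atp5f1b, 12.4 beside 982 for Ndufa13 and 3.58 beside 646.5 for Ndufc2.

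**Figure D2:**
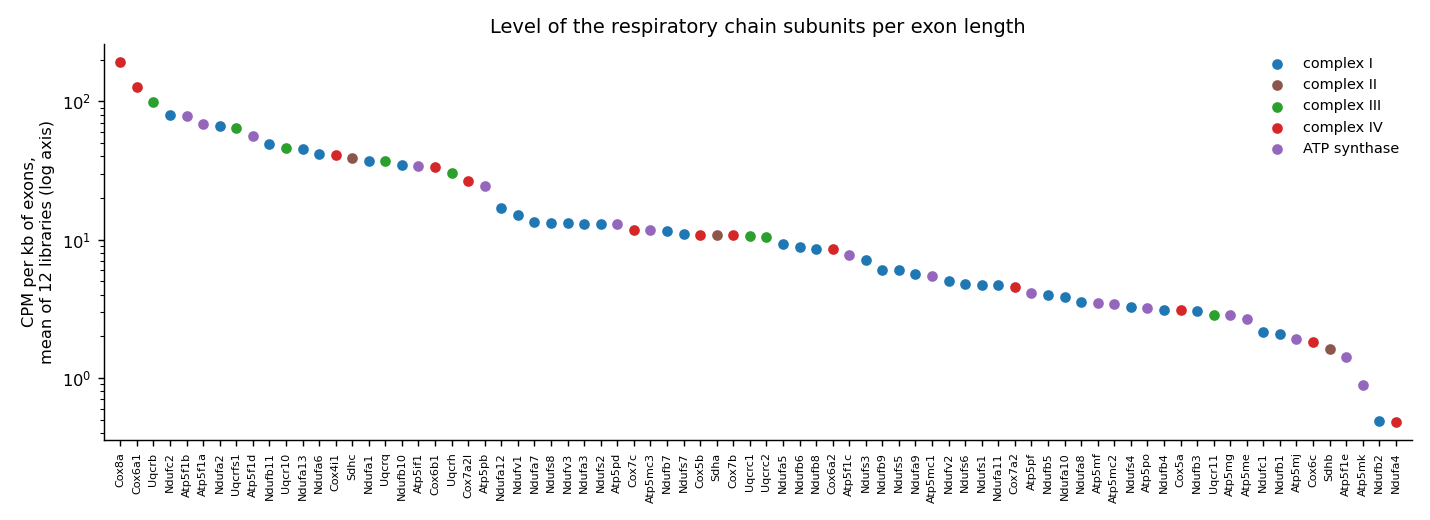
Level of each of the 78 subunits as CPM per kb of exons, the mean of 12 libraries (y axis, log scale), in descending order, coloured by complex. Cox8a is highest at 192 CPM per kb and Ndufa4 lowest at 0.482, and each of the larger complexes spreads over most of the range.

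Where a subunit has variants known from other tissues, the ubiquitous form was the higher per length in each pair. Over the 12 libraries, Cox4i1 had 41.0 ± 5.47 CPM per kb (SD, n = 12, as for the values that follow) and Cox4i2, its hypoxia-responsive and lung form, 0.0995 ± 0.114. Cox8a stood at 192 ± 29.9 CPM per kb, while the heart form Cox8b was at 0.0149 ± 0.0222 and the testis form Cox8c had no count in any library, which allows up to 3 in each. Cox6b1 had 33.2 ± 2.81 and the testis form Cox6b2 0.287 ± 0.144 CPM per kb. For the Cox7a genes the levels were 4.57 ± 0.560 CPM per kb for Cox7a2 and 0.214 ± 0.196 for the heart form Cox7a1, and Cox7a2l, which takes part in supercomplex assembly, had 26.5 ± 2.33. Cox6a2, the heart and muscle form, was the one such variant kept by the count limit, at 8.48 ± 2.61 CPM per kb beside Cox6a1 at 127 ± 17.9. Ndufa4l2, the hypoxia-induced paralog of Ndufa4, had 1 count in 1 library and none in the others. The 3 genes Atp5mc1, Atp5mc2 and Atp5mc3, which code for the same c-ring subunit of ATP synthase, had 5.5 ± 0.764, 3.40 ± 0.268 and 11.6 ± 1.59 CPM per kb. On the canonical length they had 54.07, 30.39 and 31.05 CPM per kb, so their order depends on the length used. The levels of Atp5mc1 and Atp5mc2 are also uncertain for their shared sequence, given above. Among the small subunits of complex III, Uqcr10 had 45.6 ± 5.63 and Uqcr11 2.84 ± 0.641 CPM per kb.

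The first question was whether IL-4 changed the subunits. In WT macrophages, 27 of the 78 rose with IL-4 and none was called lower, and the increases were modest, from 1.20 to 1.63 times. Calls here ask for more than a 1.2-fold change in either direction besides an adjusted p under 0.05, with edgeR's quasi-likelihood test over all genes and Benjamini-Hochberg adjustment, among protein-coding genes with an average normalized count over 10. The 27 are 34.6% of the subunits, against 23.6% of the 11135 eligible genes that were called higher, and the 0 called lower stand against 21.8%. At an unadjusted p under 0.05, 39 subunits were higher and 1 was lower. These are 40 of 78, beside 53.8% of the 14266 genes tested, so such a p in either direction was no more frequent among the subunits. The share of all genes with such a p was not split by direction. The DESeq2 Wald test also called none lower. The median log2 fold change was 0.20, against 0.00 over all genes tested, with 70 subunits above 0 and 8 below.

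The largest increase was that of Atp5f1b, the catalytic subunit of ATP synthase. Atp5f1b, whose gene lies on chromosome 10 from 127919132 to 127926261 (GRCm39), had 272, 261 and 286 CPM in the WT M0 libraries and 437, 435 and 454 CPM in the WT M2 libraries. Every M2 library was far above every M0 library, and the log2 fold change was 0.70 ± 0.06 (SE, adjusted p = 6.33e-07, edgeR). Atp5f1a, the alpha subunit that alternates with beta in the catalytic head, rose by 0.66 ± 0.06 (log2, SE, adjusted p = 9.22e-07, edgeR). The others called of this complex were Atp5f1d of the central stalk, Atp5po of the peripheral stalk, the c-ring gene Atp5mc1 and the inhibitor Atp5if1. Thus 6 of its 18 were called, where 23.6% of all eligible genes were called higher. In complex I, 9 of 36 were called, a share close to the 23.6% of all eligible genes. Among the 9 were Ndufa13, Ndufv1, Ndufb11, Ndufs1, Ndufb1, Ndufa1, Ndufs8 and Ndufv2. They include Ndufv1 and Ndufv2, which form the NADH-oxidizing tip, and Ndufs1 and Ndufs8 of the arm that carries electrons to ubiquinone. Ndufa13, an accessory subunit also known as GRIM-19, had 88.1, 82.8 and 90.0 CPM in WT M0 and 134, 131 and 130 CPM in WT M2. The libraries of the groups were well separated, with a log2 fold change of 0.60 ± 0.06 (SE, adjusted p = 3.27e-06, edgeR). Ndufb1, an accessory subunit with few counts, rose by 0.67 ± 0.19 (log2, SE, adjusted p = 0.0117, edgeR), second in size after Atp5f1b.

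Complex II was uneven. Sdhc had 133, 120 and 138 CPM in WT M0 and 179, 185 and 187 CPM in WT M2, with no overlap, and rose by 0.50 ± 0.07 (log2, SE, adjusted p = 3.04e-05, edgeR). Sdha, the flavoprotein that oxidizes succinate, and Sdhb had log2 differences of -0.06 ± 0.09 and -0.11 ± 0.12 (SE, adjusted p = 0.615 and 0.50, edgeR). In complex III, 4 of 8 were called, beside 23.6% of all eligible genes. They were the core protein gene Uqcrc1, the Rieske protein gene Uqcrfs1, the hinge protein gene Uqcrh and Uqcr11. Uqcrc1 had 55.3, 48.7 and 52.1 CPM in WT M0 and 71.1, 73.0 and 70.3 CPM in WT M2, again without overlap, and a log2 fold change of 0.47 ± 0.07 (SE, adjusted p = 0.000125, edgeR). In complex IV, 7 of 13 were called, beside the same 23.6%: Cox4i1, Cox7b, Cox8a, Cox5b, Cox7c, Cox5a and Cox6c. Cox4i1, a regulatory subunit of the oxidase, had 118, 99.6 and 110 CPM in WT M0 and 147, 142 and 135 CPM in WT M2. Its groups did not overlap, and it rose by 0.38 ± 0.07 (log2, SE, adjusted p = 0.000728, edgeR).

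Short transcripts as a whole moved the same way in this comparison, and their part in the result was not tested. The median log2 fold change over the 507 protein-coding genes of up to 1000 bases was 0.13, and for the 38 subunits among them 0.18. Among longer genes of up to 2000 bases it was 0.06 over 1884 genes and 0.25 for 20 subunits, and among those above 2000 and up to 4000 bases 0.02 over 4341 genes and 0.24 for 15 subunits. With offsets for gene length and GC content 35 subunits were called higher, and without the WT M0 library numbered 2 there were 19 called higher and 1 lower, Ndufc2, at a log2 fold change of -0.30, and the median over the 78 was 0.15. Of the 27, 14 were called whichever library was left out, among them Atp5f1b, Atp5f1a, Ndufa13, Sdhc, Uqcrc1 and Cox4i1.

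In KO macrophages, IL-4 raised 12 of the 78 subunits, by 1.23 to 1.47 times, and none was called lower. The 12 are 15.4% of the subunits, below the 18.5% of 11118 eligible genes called higher, so a called increase was no more frequent among the subunits than among genes in general, and the 0 called lower stand against 18.1%. At an unadjusted p under 0.05, 15 subunits were higher and 3 lower, which is 18 of 78, beside 43.5% of the 14331 genes tested. The DESeq2 Wald test called 1 lower, Ndufc2. The median log2 fold change was 0.11, against -0.01 over all genes tested, and it fell to 0.04 without the KO M0 library numbered 2. ATP synthase gave 6 of the 12 (Atp5f1a, Atp5f1b, Atp5mc3, Atp5if1, Atp5mc1 and Atp5po), complex I 3 (Ndufv2, Ndufa13 and Ndufv1), complex III 2 (Uqcrc1 and Uqcrh), complex II 1 (Sdhc) and complex IV 0.

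Atp5f1a, the alpha subunit of ATP synthase, had the smallest p value here. Uqcrh had the largest called increase, at 0.56 ± 0.11 (log2, SE, adjusted p = 0.00133, edgeR). Atp5f1b had 337, 267 and 300 CPM in KO M0 and 425, 431 and 424 CPM in KO M2, and Atp5f1a rose by 0.51 ± 0.09 (log2, SE, adjusted p = 0.000570, edgeR). The KO M0 libraries were more scattered than the KO M2 libraries, but the groups did not overlap. Ndufv2 had 19.7, 21.0 and 20.5 CPM in KO M0 and 29.6, 28.1 and 27.5 CPM in KO M2, a log2 fold change of 0.48 ± 0.10 (SE, adjusted p = 0.00182, edgeR). Uqcrc1 rose by 0.44 ± 0.08 (log2, SE, adjusted p = 0.00115, edgeR) and Sdhc by 0.32 ± 0.09 (log2, SE, adjusted p = 0.0183, edgeR). Of complex IV, Cox4i1 had 132, 108 and 127 CPM in KO M0 and 147, 154 and 127 CPM in KO M2. These groups overlapped, and the log2 difference was 0.22 (adjusted p = 0.0977, edgeR). Cox7b and Cox8a had log2 differences of 0.29 and 0.21 (adjusted p = 0.175 and 0.215, edgeR).

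Of the 12 subunits called in KO, 7 held whichever library was left out, beside 14 of 27 in WT: Atp5f1a, Atp5f1b, Uqcrc1, Uqcrh, Ndufv2, Atp5mc3 and Ndufa13. Without the KO M0 library numbered 2, 8 subunits were called higher and 3 lower, the latter being Ndufa12, Ndufc2 and Cox6a2, and without the KO M2 library numbered 1, or without that numbered 2, 7 were called higher. Ndufc2, a small membrane-arm subunit, had log2 differences of -0.22 ± 0.09 in WT (SE, adjusted p = 0.0581, edgeR) and -0.36 ± 0.13 in KO (SE, adjusted p = 0.0556, edgeR).

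**Figure D3:**
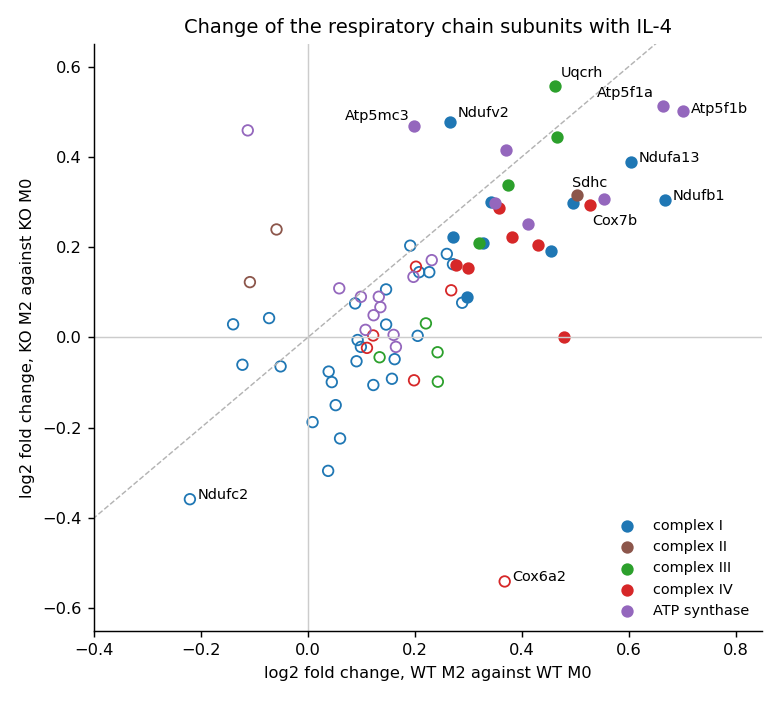
Log2 fold change of each subunit with IL-4 in WT (x axis) and KO (y axis) macrophages, coloured by complex, with filled points for subunits called in at least 1 genotype and a dashed line for equal values. Atp5f1b, Ndufb1 and Atp5f1a are farthest to the right at 0.70, 0.67 and 0.66, and Cox6a2 is apart from the rest at 0.37 in WT and -0.54 in KO, called in neither.

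**Figure D4:**
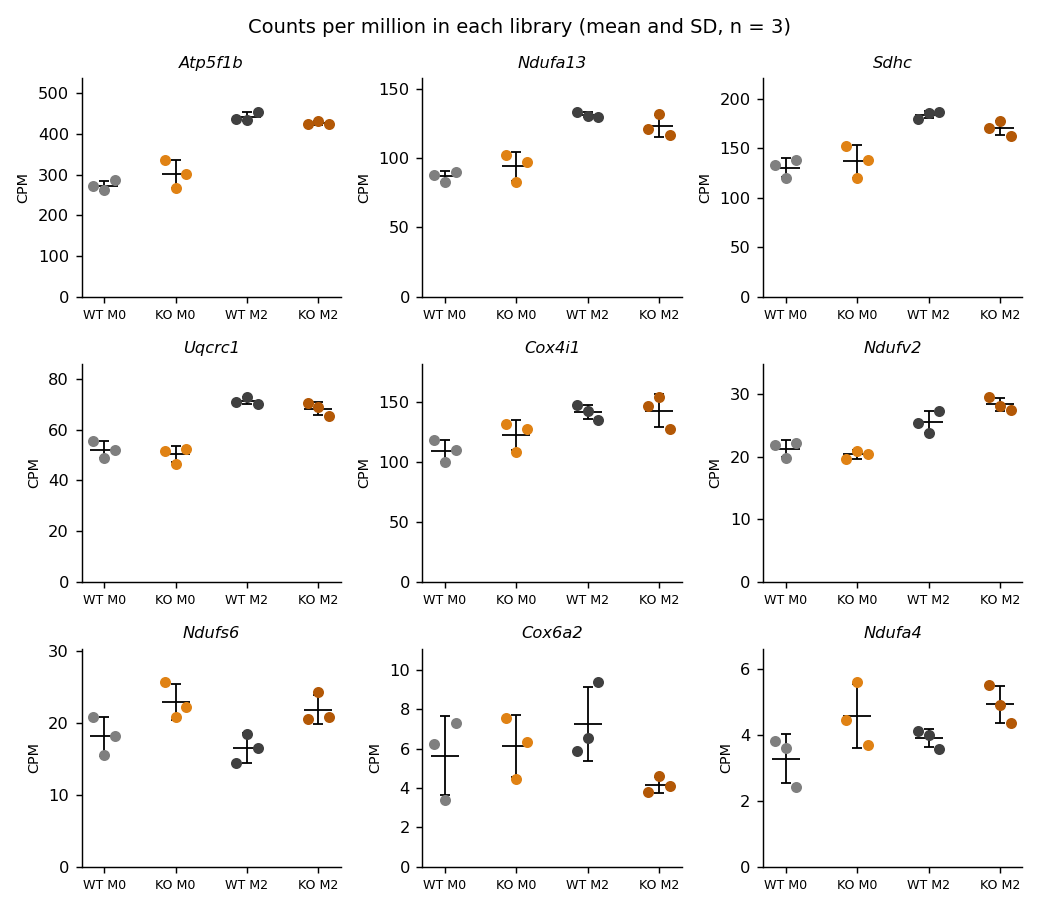
CPM in each library (points) with mean and SD (n = 3) for 9 subunits in WT M0, KO M0, WT M2 and KO M2, each axis starting at 0. Atp5f1b stands at 261 to 337 CPM in M0 and 424 to 454 CPM in M2, while Cox6a2 in KO M2, at 3.79 to 4.59 CPM, is below WT M2, at 5.88 to 9.39 CPM.

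The next question was whether the response to IL-4 differed between genotypes. Of the 27 subunits called in WT and the 12 in KO, 11 were shared, which is 40.7% of the WT calls and 91.7% of the KO calls, and Atp5mc3 was called in KO alone. The difference itself was tested with the genotype by polarization interaction over all 12 libraries, called at an adjusted p under 0.05. No subunit was called in either direction by edgeR, nor by the DESeq2 Wald test, and 0 of the 14825 genes tested were called, a background of 0%. At an unadjusted p under 0.05 there were 4 subunits, 1 above 0, and 1327 genes. A difference between genotypes in the IL-4 response of a subunit was thus not shown, complex IV included.

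The interaction estimates were mostly below 0, meaning a smaller change in KO: 66 of the 78, with a median of -0.11 against -0.00 over all genes tested. Short genes in general were also below 0, with a median of -0.10 over 523 protein-coding genes of up to 1000 bases and of -0.13 over the 38 subunits among them, and over longer genes of up to 2000 bases it was -0.05 over 1914 genes and -0.15 over 20 subunits. Without the M0 libraries numbered 2 the median over the 78 was -0.16, with 62 below 0 and 0 called. The libraries that stand apart move with this value, and their part in it was not tested. In complex IV all 13 estimates were below 0, with a median of -0.15. The 5 subunits with the smallest p were Cox5a, Cox6a2, Uqcrq, Atp5mc3 and Ndufa12. Cox5a, a subunit on the matrix side of the oxidase, had 9.39, 10.3 and 12.4 CPM in WT M0, 12.8, 17.2 and 14.6 in WT M2, 13.9, 12.5 and 12.3 in KO M0 and 13, 13.4 and 12.4 in KO M2. WT M0 was the low group and WT M2 reached highest, and the estimate was -0.47 ± 0.19 (SE, adjusted p = 0.462, edgeR). Estimates were -0.90 ± 0.38 for Cox6a2, -0.34 ± 0.15 for Uqcrq, a ubiquinone-binding protein of complex III, 0.27 ± 0.12 for Atp5mc3 and -0.33 ± 0.16 for Ndufa12 (SE, adjusted p between 0.480 and 0.587, edgeR).

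Between genotypes without IL-4, no subunit differed at the limits used. In M0, 0 of 78 were called higher and 0 lower in KO, where 0.22% and 0.241% of the 14089 genes tested were called, and the DESeq2 Wald test called none either. The smallest adjusted p of a subunit was 0.405. At an unadjusted p under 0.05 there were 4 subunits, 3 of them higher, and 1410 genes. The median log2 difference was 0.11, against 0.00 over all genes tested, with 61 subunits above 0 and 17 below. Over the 505 genes of up to 1000 bases the median was 0.10 and for the subunits among them 0.12. Among longer genes of up to 2000 bases it was 0.05 over 1862 genes and 0.12 for 20 subunits. Above 2000 and up to 4000 bases it was 0.02 over 4277 genes and 0.095 for 15 subunits, and above 4000 bases -0.02 over 4411 genes and 0.04 for 5 subunits. The median over the 78 subunits was 0.05 without the KO M0 library numbered 1, 0.06 without the WT M0 library numbered 2 and 0.22 without the KO M0 library numbered 2. Without both libraries numbered 2, 0 subunits were called and the median was 0.14. The libraries that stand apart move with this value, and their part in it was not tested. Summed over the 78 subunits, the WT M0 libraries had 4114, 3641 and 4146 CPM and the KO M0 libraries 4687, 3807 and 4384 CPM, and these overlap.

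The 5 subunits with the smallest p in M0 were Ndufs6, Ndufv3, Ndufb11, Atp5mc3 and Cox6a1. Ndufs6, a zinc-binding subunit needed for the assembly of complex I, lies on chromosome 13 from 73464968 to 73476661. It had 20.8, 15.5 and 18.1 CPM in WT M0 and 25.7, 20.8 and 22.2 CPM in KO M0. The groups overlapped at their edges, and the log2 difference was 0.34 ± 0.13 (SE, adjusted p = 0.405, edgeR). Ndufv3 and Ndufb11 had log2 differences of 0.25 ± 0.11 and 0.26 ± 0.11, Cox6a1 one of 0.28 ± 0.14 and Atp5mc3 one of -0.23 ± 0.11 (SE, adjusted p between 0.450 and 0.552, edgeR). For Atp5mc3 the WT M0 libraries, at 28.3, 31.1 and 28.9 CPM, were above the KO M0 libraries, at 22.2, 25.8 and 26.9 CPM.

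In M2, no subunit was called in either direction, where 0.408% of the 13980 genes tested were called higher and 0.572% lower in KO, and the DESeq2 Wald test called none. The median log2 difference was -0.00 over the 78 and 0.00 over all genes, with 38 subunits above 0 and 40 below. At an unadjusted p under 0.05 there were 2 subunits, Cox6a2 and Ndufs6, and 1498 genes.

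Cox6a2, on chromosome 7 from 127804607 to 127805559, had 5.88, 6.52 and 9.39 CPM in WT M2 and 3.79, 4.59 and 4.12 CPM in KO M2. All KO libraries were below all WT libraries, and the log2 difference was -0.78 ± 0.20 (SE, adjusted p = 0.0964, edgeR). In M0 its values overlapped, at 6.22, 3.40 and 7.29 CPM in WT and 7.56, 4.46 and 6.36 CPM in KO. Itgad overlaps Cox6a2 on the opposite strand. Ndufs6 had 14.4, 18.5 and 16.6 CPM in WT M2 and 20.5, 24.2 and 20.8 CPM in KO M2. It was higher in every KO library, by a log2 difference of 0.41 ± 0.12 (SE, adjusted p = 0.125, edgeR). Both were called when genes with low counts were not filtered out, with adjusted p of 0.00498 for Cox6a2 and 0.0278 for Ndufs6 (edgeR), and neither with any 1 library left out. The next smallest p values were those of Uqcrh, Ndufb1 and Sdhc, with log2 differences of 0.18 ± 0.09, -0.36 ± 0.18 and -0.11 ± 0.06 (SE, adjusted p between 0.483 and 0.527, edgeR).

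Ndufa4, named in the literature as a target of miR-210, had 3.81, 3.61 and 2.43 CPM in WT M0 and 4.45, 5.60 and 3.68 CPM in KO M0. In M2 it had 4.12, 4.0 and 3.58 CPM in WT and 5.5, 4.91 and 4.37 CPM in KO. The groups overlapped in M0, and in M2 all KO libraries were above all WT libraries. The log2 differences were 0.49 ± 0.26 in M0 and 0.34 ± 0.19 in M2 (SE, adjusted p = 0.579 and 0.574, edgeR). Its mean raw count was 37.8, and the share of depth and of spread between libraries in these errors was not tested. Ndufa13, which carries the match of 7 seed letters, had log2 differences between KO and WT of 0.12 ± 0.10 in M0 and -0.09 ± 0.06 in M2, and Sdhb -0.16 ± 0.14 and 0.08 ± 0.11 (SE, adjusted p between 0.685 and 0.871, edgeR).

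**Figure D5:**
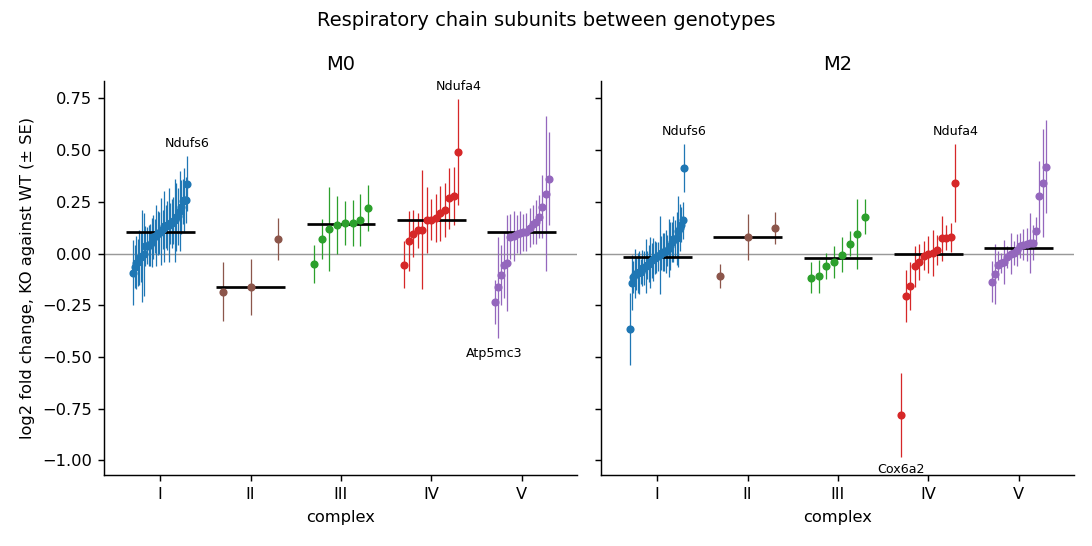
Log2 fold change between KO and WT (y axis) of each subunit with its SE, by complex (x axis) and in order of size, in M0 and in M2, with a bar for the median of each complex. In M0 most points lie above 0, with a median of 0.11 over the 78, and in M2 they lie around 0 with Cox6a2 lowest at -0.78.

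Genes that serve the chain were looked at beside the subunits. None of the genes in 6 lists was called between KO and WT or in the interaction by edgeR, where 10 had an unadjusted p under 0.05 in M0, 9 in M2 and 8 in the interaction: 2 subunits outside the name rule, 19 electron carriers and coenzyme Q genes, 50 tested assembly factors, 17 tested biogenesis regulators, 15 genes of mitochondrial mass and 8 cycling genes. These counts are out of 111 genes, and 10%, 10.7% and 8.95% of all genes tested had such a p. With IL-4, the shares of all eligible genes called, given above, were 23.6% higher and 21.8% lower in WT and 18.5% higher and 18.1% lower in KO. In WT, Cyc1, the cytochrome c1 subunit of complex III, rose by 0.38 ± 0.09 (log2, SE, adjusted p = 0.00298, edgeR), and Ndufab1 was not called. Of the electron carriers and coenzyme Q genes 6 rose and 1 fell in WT, and 2 rose and 1 fell in KO. The one that fell in both was Coq2, which joins the ring and tail of coenzyme Q, with log2 changes of -0.88 and -0.80, and it went from 39.4 ± 2.94 to 21.3 ± 0.814 CPM in WT (SD, n = 3). Coq8a had the largest increase in WT, 0.83 ± 0.29, and Etfdh, which hands electrons from fatty acid oxidation to coenzyme Q, the largest in KO, 0.49 ± 0.09 (log2, SE, adjusted p = 0.0316 and 0.00103, edgeR).

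Of the assembly factors, 4 of the 49 eligible were called higher and 4 lower in WT, and 2 of 50 higher and 4 lower in KO. Each is a smaller share than that of all eligible genes. Tmem126b, of the complex that builds the membrane arm of complex I, rose by 0.70 ± 0.08 in WT and 0.87 ± 0.09 in KO, and Ndufaf7, a methyltransferase of complex I assembly, fell by 0.84 and 0.62 on the log2 scale (adjusted p between 1.12e-05 and 0.0267, edgeR). Among biogenesis regulators 2 rose and 2 fell in WT and 2 rose and 1 fell in KO. Ppargc1b, the coactivator PGC-1beta that drives transcription of respiratory genes, had 5.63 ± 1.12 CPM in WT M0, 24.5 ± 0.713 in WT M2, 6.42 ± 1.26 in KO M0 and 19.5 ± 2.42 in KO M2 (SD, n = 3). This was the largest change of the lists, at 2.11 ± 0.14 in WT and 1.59 ± 0.17 in KO (log2, SE, adjusted p = 3.39e-08 and 9.30e-06, edgeR). Polg, the mitochondrial DNA polymerase, fell by 0.66 in WT and 0.81 in KO on the log2 scale. Of 15 genes of mitochondrial mass, 7 rose in WT, where 23.6% of eligible genes did, and 2 in KO, where 18.5% did, led in WT by the chaperonin Hspd1, at 0.63 ± 0.07, and the outer membrane channel Vdac2, at 0.56 ± 0.06, and in KO by Vdac2, at 0.34 ± 0.09, and Phb1, at 0.27 ± 0.09 (log2, SE, adjusted p up to 0.0404, edgeR). Of 8 cycling genes, 5 rose in WT, and in KO 4 rose and 2 fell. Ccna2, a cyclin of S phase and mitosis, rose by 1.48 ± 0.19 in WT and 0.57 ± 0.16 in KO, Ccnb1 by 1.02 ± 0.15 in WT, and Mcm2, of the replication helicase, fell by 0.68 in KO (log2, adjusted p up to 0.0158, edgeR). The median log2 difference of the 8 between KO and WT in M0 was 0.57, with 0 called. The part of cycling cells in the subunits' levels was not tested.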

How the data were processed

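The authors trimmed reads with Trimmomatic, removed duplicates with Picard, aligned to GRCm39 with STAR and counted reads per gene with featureCounts. They deposited these raw counts, without normalization, in a table for each of 4 pairs of groups, and as signal values the same counts divided by DESeq2 size factors, which were used only for an alternative of the levels. Libraries were assigned to groups by column names, and their numbers within a group are not tied to samples. From the counts, differences were fitted with edgeR 4.0.16 under R 4.3.3 (quasi-likelihood F test, TMM factors, filterByExpr, Benjamini-Hochberg adjustment over all genes), on the 6 libraries of a pair or, for the interaction, all 12. The DESeq2 1.42.0 Wald test was an alternative, beside those of the closing section, and the code was tested on simulated data. A log2 fold change's SE is its size over the square root of F. Gene names and lengths came from GENCODE for GRCm39, which matched 56323 identifiers and left 618. Deviations of libraries used log2(CPM + 0.5), CPM being counts per scaled library total. Named were the 5 subunits with the smallest p in each KO comparison and in the interaction, the called subunit with the smallest p per complex and direction in each polarization comparison, any changed by over 1 on the log2 scale (none), the highest and lowest level per complex, variant pairs, Ndufa4, the genes at the count limit, and the largest 2 called changes per list. Others, such as Ndufc2, were chosen after their values were seen. The members and lists were chosen with earlier results of these data known. A called subunit of complex I is counted but not reported here by name. Removing duplicates can lower counts of abundant short transcripts.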

Additional observations from a re-analysis of the deposited data

How the results depend on the processing

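The alternatives were the DESeq2 Wald test, RLE and upper quartile factors, no filter or a mean count of at least 10, a fit of 12 libraries, a replicate block, offsets for length and GC content, no fold limit, and each library left out. The 4 medians moved by less than 0.12, the SD between libraries, in all 59 alternative fits, but that SD is larger than 3 of the medians themselves. For KO against WT in M2, 1 subunit was called higher and 1 lower without the filter, and the library number as a replicate block also gave 1 and 1. Same-numbered libraries correlated in their deviations from the group means at 0.029 to 0.403 in M0, -0.103 to 0.113 in M2, -0.106 to -0.049 in WT and -0.333 to 0.077 in KO, and 3, 2, 0 and 1 of 6 libraries correlated best with their own number. No comparison had all 3 above 0.1, so the numbers were not taken to pair the samples, and 0.403 is that of the M0 libraries numbered 2. For M2 against M0 in KO, subunits called lower were 1 with DESeq2, 2 with upper quartile factors, 2 without the filter, 1 at a mean count of 10, 1 with 12 libraries, 2 with length and GC offsets and 3 without the M0 libraries numbered 2, which gave 1 lower in WT. With each library left out in turn, the calls in KO were 7 to 17 higher and 0 to 3 lower, in WT 19 to 29 higher and 0 to 1 lower, and 0 between genotypes and in the interaction. The median level per length was 13.7 CPM per kb with the longest and 35.4 with the canonical transcript, both shorter than the exon union by construction. Of 430 values of named subunits, 421 stayed on the same side of the limits, 5 fell below, 4 passed and 0 turned. These belong to 26 results, of which those with IL-4 were named for the smallest p per complex, so they do not stand for all calls. Of all calls with IL-4, 14 of 27 in WT and 7 of 12 in KO held whichever library was left out. The lowest mean count of a subunit was 23.7 (Atp5me), and depth was not separated from the spread between libraries.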

Other observations

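The partners of these subunits encoded by mitochondrial DNA, a list chosen after the data were known, were looked at as a group of 13 genes. Their summed level was between 8460 and 8924 CPM in WT M0, 8419 and 9126 in KO M0, 9961 and 11720 in WT M2, and 10588 and 11406 in KO M2, so that M2 was above M0 in both genotypes. With IL-4, 6 of the 9 that passed the count filter were called higher in WT and 5 of 11 in KO, and none was called lower in either (edgeR), where 23.6% and 18.5% of all eligible genes were called higher. Of these, mt-Nd4, of complex I, rose by 0.47 ± 0.10 in WT and 0.65 ± 0.08 in KO, and mt-Cytb, of complex III, by 0.53 ± 0.09 and 0.66 ± 0.07 (log2, SE, adjusted p between 9.78e-06 and 0.00145, edgeR). The oxidase gene mt-Co1 had log2 differences of 0.19 ± 0.07 in WT and 0.16 ± 0.08 in KO and was not called in either.

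Between genotypes, 1 of the 10 mitochondrially encoded genes tested was called in M0 and in M2, in each case mt-Nd3, of complex I, which was higher in KO, where 0.22% of all genes tested were called higher in M0 and 0.408% in M2. It had 1, 0 and 2 counts in WT M0, 1, 1 and 2 in WT M2, 40, 40 and 50 in KO M0 and 59, 55 and 46 in KO M2. Every KO library was far above every WT library. The ratio of KO to WT, scaled to library totals, was 40.2 in M0 (exact 95% interval from 13.5 to 197) and 40.5 in M2 (from 15.5 to 151), intervals that cover counting error only, and the adjusted p was 0.000326 and 6.18e-07 (edgeR). These counts are a small part of what the neighbouring genes had: 6 of the 13 genes, mt-Co2, mt-Atp8, mt-Atp6, mt-Co3, mt-Nd3 and mt-Nd4l, had a mean count under 30, and the other 7 at least 418. Of the 50-base stretches of mt-Nd3, 99% occur elsewhere in GRCm39, and for the other 5 genes of low count the share was 100%, beside 62.2% for mt-Nd4, 51.1% for mt-Co1 and 0% for mt-Cytb. The levels of these 6 genes, and those of mt-Nd4 and mt-Co1, are therefore uncertain, and the part of shared sequence in the difference of mt-Nd3 was not tested.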
